A study of Mus musculus with 12 samples.

Results

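Genes of leukocyte adhesion, 10 in number, were followed through LPS activation of mouse macrophages: the integrin chains Itgal, Itgam, Itgax, Itgb2, Itga4, Itgb7, Itga5, Itgav and Itgb3, and Icam1, a ligand of the Itgb2 integrins. They were taken by symbol from the deposited expression table, so 10 of its 43280 genes are described, and all 10 passed the filter that left 12086 genes for testing (a level of 1 CPM, a count scaled to the library total, or more in 2 or more libraries). The study asked how loss of Treml4, a TREM family receptor of myeloid cells, changes the transcriptome of pro-inflammatory macrophages. Bone marrow cells of C57BL6 background mice, wild type (wt) or Treml4-/-, were grown into macrophages with 20 ng/ml M-CSF and then received PBS vehicle (M0) or 100 ng/ml LPS for 8 h (M1-8 h) or 12 h (M1-12 h). Poly(A) RNA was sequenced from 2 biological replicates of each of the 6 groups, 12 libraries in all. The labels give neither the animals behind a replicate nor their age, so p-values measure the spread between these libraries, which may be technical. They also give no time of harvest for the vehicle cells, which both LPS times are compared with.

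Integrins are receptors of 1 alpha and 1 beta chain that tie a cell to matrix or to other cells. Itgb2 pairs in leukocytes with Itgal (LFA-1), Itgam (Mac-1), Itgax (CD11c) or Itgad, and ICAM-1 is the main ligand of LFA-1 and is also bound by Mac-1. Itga4 pairs with Itgb1 as VLA-4, which binds VCAM-1 and fibronectin, or with Itgb7 as the gut-homing receptor for MAdCAM-1. Itga5 pairs with Itgb1 as the fibronectin receptor, and Itgav with Itgb3 or other beta chains as receptors for vitronectin and osteopontin. In macrophages these receptors serve adhesion, migration and the uptake of opsonized particles, and LPS is known to induce Icam1 through NF-kB.

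The gene models, on GRCm38 in the GENCODE M21 annotation, place 3 of the alpha chains on chromosome 7. Itgal lies at chr7:127296260-127335138, Itgam at chr7:128062640-128118491 and Itgax at chr7:128129547-128150657, all on the plus strand, with 11.1 kb between the end of Itgam and the start of Itgax. Itgb2 lies at chr10:77530252-77565708 (plus strand) and Icam1 at chr9:21015985-21028817 (plus strand). Itga4 lies at chr2:79255426-79333123, Itgav at chr2:83724397-83806916 and Itgb3 at chr11:104608000-104670476, all on the plus strand. Itgb7 lies at chr15:102215995-102231944 and Itga5 at chr15:103344286-103366763, both on the minus strand. Of the annotated genes that overlap a member and have a row in the table, Cerkl, on the strand opposite to Itga4, held at most 1.85 CPM, and the others held no read. Icam1 and Itgam overlap genes that have no row under the annotation's name, so reads of those cannot be told apart from theirs.

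RefSeq promoter sequences (GRCm38.p6, 250 bases before to 50 after the start site) were on hand for 7 of the 10 genes: Icam1, Itga4, Itga5, Itgav, Itgam, Itgax and Itgb7. Those of Icam1, Itga4 and Itgb7 are shown because these genes moved furthest after LPS, up, up and then down, and down. Capitals mark matches, on either strand, to 7 short motifs: GGAAATTCC (NF-kB type), TTCNNNGAA (GAS, the interferon and STAT type), GAAANNGAA (interferon response type) and TGANTCA (AP-1 type), then the shorter GAGGAA, known from binding by PU.1, the motif GGGCGG, known from binding by Sp1, and last the core promoter element spelled TATAAA.
Icam1, chr9:21015690-21015989, plus strand: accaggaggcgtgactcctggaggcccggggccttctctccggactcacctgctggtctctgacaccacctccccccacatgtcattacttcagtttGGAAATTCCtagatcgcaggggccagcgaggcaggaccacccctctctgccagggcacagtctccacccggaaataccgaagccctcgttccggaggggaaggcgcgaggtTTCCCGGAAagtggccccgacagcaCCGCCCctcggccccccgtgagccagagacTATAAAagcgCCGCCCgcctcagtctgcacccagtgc
Itga4, chr2:79255176-79255475, plus strand: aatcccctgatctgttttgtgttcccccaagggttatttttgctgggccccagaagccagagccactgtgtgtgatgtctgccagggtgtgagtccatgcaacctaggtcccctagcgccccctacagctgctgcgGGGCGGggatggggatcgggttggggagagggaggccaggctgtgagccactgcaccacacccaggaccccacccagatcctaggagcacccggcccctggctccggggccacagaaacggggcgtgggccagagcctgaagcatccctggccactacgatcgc
Itgb7, chr15:102231886-102232185, minus strand: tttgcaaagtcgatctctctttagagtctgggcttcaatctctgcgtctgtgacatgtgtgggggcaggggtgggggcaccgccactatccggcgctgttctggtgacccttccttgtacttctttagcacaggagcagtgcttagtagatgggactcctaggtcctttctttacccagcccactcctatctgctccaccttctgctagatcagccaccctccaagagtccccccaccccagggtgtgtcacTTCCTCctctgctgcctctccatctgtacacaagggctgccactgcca

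Of the 7 promoters, that of Icam1 alone held GGAAATTCC, whose first base lies at position -153 from the start site, and this motif is in 0.317% of all 32851 promoters in the table. This is 1 fixed spelling, so both the share and its absence from the other promoters hold for that spelling only. NF-kB sites spelled otherwise were not searched for. The Icam1 promoter alone also held TTCNNNGAA (at -42, in 8.3% of all promoters) and TATAAA (at 14, downstream of the start site, in 13.6%). Its positions count from the RefSeq start site, which lies upstream of the start of the Icam1 gene model given above. GAGGAA, found in 28.3% of all promoters, was in those of Itgam, Itgav, Itgb7 and Itga5, with 3 matches in Itgam. GGGCGG, found in 35.7%, was in those of Itga4, Itgav, Itgam, Icam1 and Itga5. TGANTCA (7.81% of all) was found in Itgax and GAAANNGAA (8.56%) in Itgav. A match is a run of letters and not a site shown to be bound, and the motifs do not overlap in the sequences printed.

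Treml4 held 198 to 663 reads in each wt library and 0 reads in each Treml4-/- library. Libraries held 48008751 to 58500792 reads on genes. Among 6 genes known to respond to LPS (Nos2, Il1b, Tnf, Ptgs2, Il6 and Nfkbia), 6 were higher at M1-8 h and at M1-12 h in both genotypes. The macrophage markers Csf1r (1040 to 7200 CPM), Lyz2 (3010 to 15200 CPM) and Adgre1 (listed as Emr1, 1550 to 2100 CPM) were present in every library, and their list of 8 summed to 20100 to 27100 CPM at M0 and 8720 to 12400 CPM after LPS. Of the 7 other than Adgre1, 3 were called higher and 4 lower at both LPS times in wt. In Treml4-/- the counts were 3 and 4, then 2 and 4. The T cell receptor chains Cd3e, Cd3d and Cd3g had at most 3 reads in every library, as did 5 of the 8 T or NK cell markers. All 5 mast cell or basophil markers stayed under 1 CPM, the 6 dendritic cell markers summed to at most 9.25 CPM and the 5 B cell markers to at most 6.48 CPM. Neutrophil markers summed to 121 to 224 CPM at M0 and 267 to 311 CPM after LPS, of which Csf3r alone held 64.5 to 262 CPM, while Ly6g stayed under 1 CPM. Of the 9 tested, 2 were called higher and 2 lower at M1-8 h in wt, and 2 and 6 at M1-12 h. In Treml4-/- the counts were 2 and 5, then 2 and 7. Under median of ratios scaling they were 3 and 0, then 2 and 3, in wt, and 2 and 1, then 2 and 6, in Treml4-/-. Megakaryocyte or platelet markers summed to 22.2 to 62.1 CPM, of which Pf4 held 20.0 to 56.5 CPM, and stroma markers to 0.989 to 5.34 CPM.

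LPS moved most of the transcriptome on this scale, and the members have to be read against that. In the test used here (limma on log2(CPM + 1), Benjamini-Hochberg adjusted, at a false discovery rate of 0.05 with a minimum fold of 1.4), 16.3% of genes were called higher and 60.6% lower at M1-8 h in wt, and 16.2% and 60.4% at M1-12 h. In Treml4-/- the shares were 17.7% and 58.1% after 8 h, and 16.1% and 59.6% after 12 h. The median gene changed by -0.74 (M1-8 h) and -0.77 (M1-12 h) on the log2 scale in wt, and by -0.70 and -0.74 in Treml4-/-. When libraries were scaled by the median of ratios instead of by their total reads, 30.9% of genes were higher and 30.8% lower at M1-8 h in wt, 32.9% and 33% at M1-12 h, 31% and 32.4% at M1-8 h in Treml4-/-, and 32.4% and 32.5% at M1-12 h. Quantile normalization gave 26.9% and 35.3%, 29.4% and 36%, 28.3% and 36.6%, and 29.7% and 35.6% in the same 4 comparisons. Changes below are on the library total scale unless another scaling is named. Where libraries of different conditions within a genotype are said to lie apart, the share of all genes with such a gap was not counted. With most genes called after LPS, a gap alone does not set a member apart. In pools of cells, less RNA per cell and fewer cells of a type cannot be told apart.

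At M1-8 h, 3 of the 10 members were called higher and 5 lower in wt, and likewise 3 and 5 in Treml4-/-. Icam1, Itgal and Itga4 were the ones higher, and Itgb7, Itgax, Itgb3, Itgav and Itgb2 the ones lower, in both genotypes. At M1-12 h the counts were 1 higher (Icam1) and 5 lower (Itgb7, Itgax, Itga4, Itgav and Itgb3) in wt, and 2 higher (Icam1 and Itgam) and the same 5 lower in Treml4-/-. The members' median change at M1-8 h was -0.37 in wt and -0.36 in Treml4-/-, above the medians of all genes, and at M1-12 h it was -0.53 and -0.49. The share called lower, 5 of 10, was not above the 58.1% to 60.6% of all genes. Under median of ratios scaling the counts became 5 higher and 1 lower at both times in wt, 5 and 1 at M1-8 h in Treml4-/-, and 5 and 2 at M1-12 h. The genes lower there were Itgb7 throughout and, at M1-12 h in Treml4-/-, Itgb3.

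**Figure D1:**
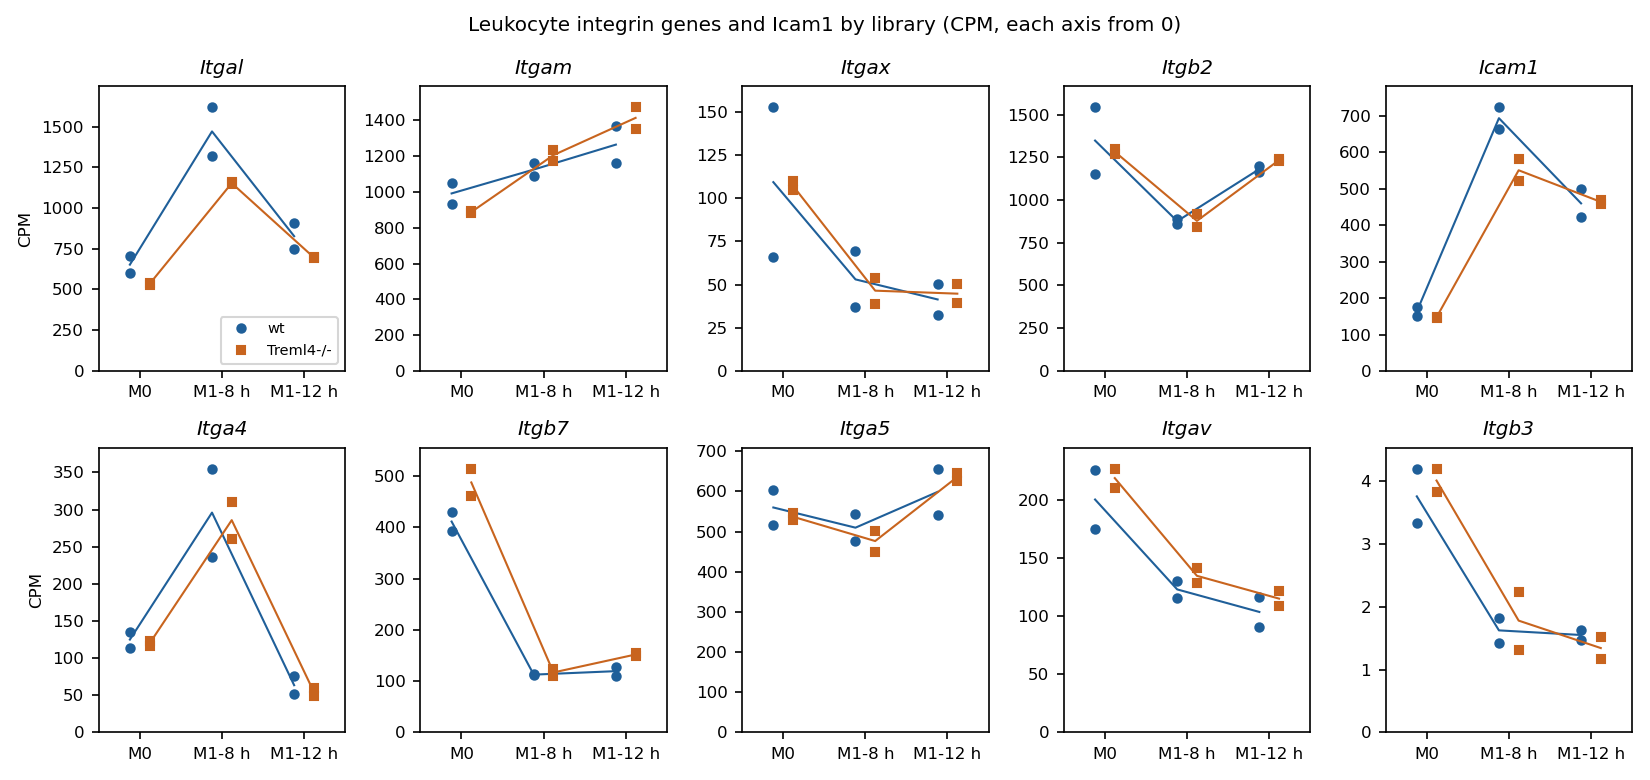
Level of each gene in CPM (vertical axes, each from 0) by condition, with 1 point per library, wt as circles and Treml4-/- as squares, and lines through the means of 2 libraries. Icam1, Itgal and Itga4 peak at M1-8 h, Itga4 then drops below M0, and Itgb7, Itgav, Itgb3 and Itgax are lower after LPS on this library total scale. Under median of ratios scaling Itgav is slightly higher at M1-8 h than at M0 in both genotypes, and Itga4 at M1-12 h is close to M0.

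Icam1, the ligand, gave the largest rise against M0 among the 10. Its 2 wt libraries held 151 and 175 CPM with vehicle, 664 and 725 after 8 h of LPS, and 422 and 498 after 12 h. The Treml4-/- libraries held 146 and 148 CPM with vehicle, 581 and 521 after 8 h of LPS, and 469 and 459.6 after 12 h. LPS and vehicle libraries did not overlap in either genotype. The rise was 4.24-fold at M1-8 h in wt (log2 change 2.08 ± 0.11, SE) and 3.72-fold in Treml4-/- (1.89 ± 0.11), and at M1-12 h it was 2.81-fold and 3.14-fold, each with a limma Benjamini-Hochberg adjusted p of at most 1.13e-07. These changes stood at the 94.8th and 93.9th percentile of all genes at M1-8 h and at the 92.5th and 93.8th at M1-12 h. Between 8 h and 12 h Icam1 fell in wt by 0.60 on the log2 scale (SE 0.11, limma adjusted p = 9.164e-04). In Treml4-/- the same change was -0.24 ± 0.11 and was not called (limma adjusted p = 0.0779), and without wt M1-12 h replicate 1 the wt change was -0.48 and under the fold limit. Whether the fall differed between the genotypes was not tested. Over the 12 libraries the genes with the most similar pattern were Ppp1r15a, Xkr8 and Slfn2 (Pearson r of log2(CPM + 1) from 0.9953 to 0.9957), given as a description since the libraries share the LPS contrast.

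Itgal, the alpha chain of LFA-1, rose at 8 h and was lower again at 12 h. In wt it held 600.5 and 704 CPM with vehicle, 1321 and 1619 after 8 h of LPS, and 749 and 906 after 12 h. Treml4-/- cells held 530.1 and 538 CPM with vehicle, 1159.7 and 1146 after 8 h of LPS, and 692 and 700.3 after 12 h. The libraries at M1-8 h were above all others of their genotype. The rise at M1-8 h was 2.25-fold in wt (log2 change 1.17 ± 0.12) and 2.16-fold in Treml4-/- (1.11 ± 0.12), with limma adjusted p = 3.019e-06 and 4.684e-06. At M1-12 h it stood 1.27-fold and 1.30-fold above M0, under the fold limit, while under median of ratios scaling it was called higher at that time too, by 1.21 (log2) in both genotypes. From 8 h to 12 h it fell by 0.83 and 0.73 on the log2 scale in wt and Treml4-/- (limma adjusted p = 2.669e-04 and 6.367e-04). The T or NK cell markers, whose cells are rich in LFA-1 and VLA-4, summed to 11.2 to 32.6 CPM at M1-8 h and 3.73 to 6.59 CPM in the other groups. Of that list 2 genes were tested, and they moved apart. At M1-8 h in wt Lck (0.231 to 31.4 CPM over the libraries) was called higher and Cd4 (0.715 to 5.24 CPM) lower. Cd3e, Cd3d and Cd3g held at most 1 read, and the part of such cells in the Itgal values was not tested. The nearest patterns were those of Relb, Kctd1 and Vasp (r from 0.9832 to 0.9864 over 12 libraries).

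Itgam, the alpha chain of Mac-1, changed little on the library total scale and held its level while most genes lost theirs. The wt libraries held 935 and 1049 CPM with vehicle, 1160.2 and 1091 after 8 h of LPS, and 1369 and 1161 after 12 h. Without Treml4 it held 880.4 and 896 CPM with vehicle, 1237 and 1176 after 8 h of LPS, and 1475 and 1354 after 12 h. LPS libraries were above vehicle libraries in both genotypes, by 0.18 ± 0.10 and 0.35 ± 0.10 (log2) at M1-8 h and M1-12 h in wt and by 0.44 ± 0.10 and 0.67 ± 0.10 in Treml4-/-. Only the last passed both limits (limma adjusted p = 6.784e-05), and the genotype by LPS interaction at 12 h was not called (0.32 ± 0.14). With median of ratios scaling Itgam was called higher in all 4 comparisons, by 1.03 to 1.49 (log2). Quantile normalization, by contrast, gave -0.21 and -0.03 in wt, so the direction in wt depends on the scaling. It gave 0.30 at M1-12 h in Treml4-/-, under the fold limit, so that call was lost too.

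Itgax, the CD11c chain, was lower after LPS, but with the widest spread of the 10. Wild type cells held 65.8 and 153 CPM with vehicle, 36.8 and 69.1 after 8 h of LPS, and 32.2 and 50.5 after 12 h. The wt groups at M0 and M1-8 h overlapped, since 1 vehicle library lay below 1 LPS library. The knockout libraries held 109.7 and 104 CPM with vehicle, 53.9 and 39.0 after 8 h of LPS, and 39.0 and 50.4 after 12 h, with vehicle and LPS libraries apart. The log2 changes were -0.98 and -1.29 (wt, 8 h and 12 h) and -1.21 and -1.25 (Treml4-/-), with an SE of 0.38 each, with limma adjusted p from 7.325e-03 to 0.0303. In wt the calls were lost without M0 replicate 2 (-0.38 at M1-8 h and -0.69 at M1-12 h), without M1-8 h replicate 1 (-0.53) and without M1-12 h replicate 1 (-0.98). In Treml4-/- they were lost without M1-8 h replicate 2 (-0.98) and without M1-12 h replicate 1 (-1.07). Scaled by median of ratios, the changes were -0.14 to -0.46 and none was called. Quantile normalization kept the call at M1-8 h in Treml4-/- only. It gave -0.65 and -0.88 in wt (8 h and 12 h) and -0.94 at M1-12 h in Treml4-/- (limma adjusted p = 0.167, 0.0645 and 0.0507). The 6 dendritic cell markers, whose cells are rich in CD11c, summed to 0.747 to 1.06 CPM at M0 and 4.37 to 9.25 CPM after LPS, opposite in direction to Itgax. Of these Xcr1 (0 reads at M0, up to 7.19 CPM after LPS) and Clec9a (up to 2.30 CPM) were tested and called higher in all 4 LPS comparisons, and Flt3, Zbtb46, Siglech and Cd209a were under 1 CPM in every library. Their part in the Itgax values was not tested.

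Itgb2, the shared beta chain, was lower at 8 h and near its M0 level at 12 h on the library total scale. In wt it held 1152 and 1544 CPM with vehicle, 862 and 891 after 8 h of LPS, and 1164 and 1198 after 12 h. In the Treml4-/- libraries it held 1297 and 1268 CPM with vehicle, 916 and 839.9 after 8 h of LPS, and 1229 and 1238 after 12 h. The M1-8 h libraries were below all others in both genotypes, by 0.61 ± 0.12 (log2) in wt and 0.55 ± 0.12 in Treml4-/- against M0 (limma adjusted p = 5.349e-04 and 1.123e-03). Relative to the median gene these changes were 0.14 and 0.15, and under median of ratios scaling Itgb2 was 0.24 and 0.21 higher than at M0 and not called. Its fall was under the fold limit without wt M0 replicate 2 (-0.39) or without Treml4-/- M1-8 h replicate 2 (-0.48). From 8 h to 12 h Itgb2 rose by 0.43 ± 0.12 in wt, under the fold limit, and by 0.49 ± 0.12 in Treml4-/- (limma adjusted p = 5.959e-03), a rise that was 0.43 without the same Treml4-/- library. At M1-12 h against M0 the values were -0.18 and -0.06 on the library total scale and 0.70 and 0.77 under median of ratios scaling, where both were called higher. Quantile normalization gave the opposite call at M1-12 h in wt, -0.54 (limma adjusted p = 5.12e-04), so the direction at 12 h depends on the scaling.

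The alpha chains of the Itgb2 family can be set against each other within a library, where no scaling between libraries enters. As shares of the summed CPM per kb of exon of Itgam, Itgal, Itgax and Itgad, Itgam took 59.9% to 63.7% at M0, 45.4% to 56.7% at M1-8 h and 60.8% to 72.1% at M1-12 h. Itgal took 28.8% to 31.3% at M0, 40.6% to 51.5% at M1-8 h and 25.9% to 36.3% at M1-12 h. For both genes the 4 M1-8 h libraries lay outside the range of the 4 M0 libraries, and the shares at M1-8 h and M1-12 h did not overlap. Itgax took 4.69% to 9.11% at M0 and 1.7% to 3.01% after LPS, also without overlap, and Itgad took at most 0.46%. The alpha chain sum was 0.659 to 0.774 of Itgb2 per kb at M0, 1.45 to 1.64 of it at M1-8 h and 0.954 to 1.03 of it at M1-12 h. With 2 libraries a group an exact permutation test cannot pass a threshold of 0.05 within a genotype, so these shares are given without a test, and they measure mRNA rather than surface receptor.

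**Figure D2:**
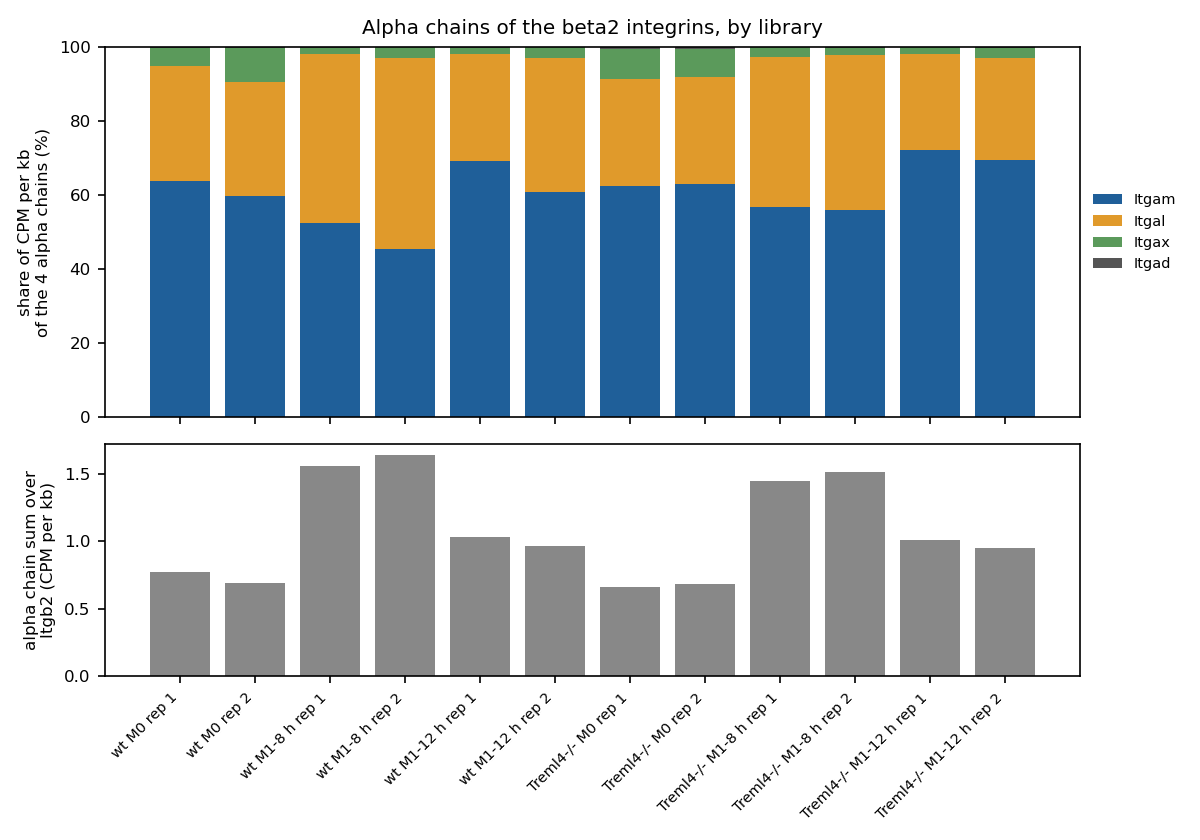
Upper panel, share in percent of each of the 4 alpha chains that pair with Itgb2 in their summed CPM per kb of exon, with 1 stacked bar per library; lower panel, that sum divided by the CPM per kb of Itgb2 in the same library. The Itgal share is 40.6% to 51.5% in the 4 M1-8 h libraries against 28.8% to 31.3% at M0, and the ratio to Itgb2 is highest there (1.45 to 1.64).

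Itga4, the alpha chain of VLA-4, showed the sharpest turn between the LPS times. The wt libraries held 136 and 114 CPM with vehicle, 237 and 355 after 8 h of LPS, and 51.3 and 75.8 after 12 h. The 2 Treml4-/- libraries of each group held 117 and 123 CPM with vehicle, 261 and 311 after 8 h of LPS, and 60.2 and 48.9 after 12 h. No group overlapped another of the same genotype. It rose at M1-8 h by 1.21 ± 0.21 (log2) in wt and 1.24 ± 0.21 in Treml4-/- (limma adjusted p = 2.093e-04 and 1.757e-04), and by 2.05 and 1.99 under median of ratios scaling. At M1-12 h it was below M0 by 0.99 ± 0.21 and 1.13 ± 0.21 on the library total scale (limma adjusted p = 9.681e-04 and 3.667e-04). That second difference was -0.12 in wt and -0.31 in Treml4-/- under median of ratios scaling and was not called there. From 8 h to 12 h Itga4 fell by 2.20 ± 0.21 in wt and 2.37 ± 0.21 in Treml4-/- (limma adjusted p = 1.568e-05 and 9.719e-06), and the values were -2.17 and -2.30 under median of ratios scaling. These falls stood at the 0.323rd and 0.265th percentile of all genes. Lck was highest at M1-8 h here too, while Cd4 was lower, as described for Itgal. The part of such cells in the Itga4 values was not tested. The nearest patterns were those of Trim36, Eml4 and Clasp2 (r from 0.9852 to 0.9900 over 12 libraries).

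Over the interval from 8 h to 12 h, 3 members were called lower and 0 higher in wt (Itgal, Itga4 and Icam1), against 17.6% and 14% of all genes. In Treml4-/- 2 were lower (Itgal and Itga4) and 1 higher (Itgb2), against 19.4% and 12.9% of all genes. The members' median change was -0.15 and -0.14 (log2) and that of all genes -0.04 and -0.08. Under median of ratios scaling 3 members were lower in wt, and 2 lower and 2 higher in Treml4-/-. Of all genes 17.2% were lower and 15.7% higher there in wt, and 17.1% and 15.8% in Treml4-/-. The unadjusted p was under 0.05 for 4 members in wt and 7 in Treml4-/-, against 53.2% and 53.9% of all genes.

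Itgb7, the other partner of Itga4, fell more against M0 than any other member. Wild type cells held 393 and 429.9 CPM with vehicle, 114 and 112 after 8 h of LPS, and 128 and 111 after 12 h. The Treml4-/- libraries held 515 and 461 CPM with vehicle, 123 and 111 after 8 h of LPS, and 149 and 156 after 12 h. Vehicle and LPS libraries were far apart in both genotypes. It fell 3.62-fold at M1-8 h in wt (log2 change -1.86 ± 0.10) and 4.14-fold in Treml4-/- (-2.05 ± 0.10), and at M1-12 h by 1.78 ± 0.10 and 1.67 ± 0.10 on the log2 scale, with limma adjusted p of at most 2.783e-08. The falls at M1-8 h stood at the 13.8th and 10.6th percentile of all genes, and Itgb7 was called lower under median of ratios scaling in all 4 comparisons (-0.85 to -1.30). Per kb of exon, Itga4 was 0.045 to 0.0685 of Itgb7 within the M0 libraries, 0.412 to 0.63 at M1-8 h and 0.0623 to 0.136 at M1-12 h. Against Itgb1, its partner in VLA-4, Itga4 was 0.0681 to 0.0745 at M0, 0.103 to 0.151 at M1-8 h and 0.0313 to 0.0482 at M1-12 h, with no overlap between the times. The nearest patterns to Itgb7 were those of Trim45, Ap3s2 and Pcbp3 (r from 0.9956 to 0.9959 over 12 libraries).

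Itga5, the fibronectin receptor alpha chain, was called in no comparison on the library total scale. In wt it held 517 and 603 CPM with vehicle, 543 and 476 after 8 h of LPS, and 657 and 541 after 12 h, and all 3 groups overlapped. Treml4-/- cells held 546 and 528 CPM with vehicle, 502 and 450.3 after 8 h of LPS, and 627 and 645 after 12 h, without overlap. The log2 changes were -0.13 and 0.09 (wt, 8 h and 12 h) and -0.17 and 0.24 (Treml4-/-), with an SE of 0.12 each. Against the median gene this steady level was 0.52 to 0.98 higher, and under median of ratios scaling Itga5 was called higher in all 4 comparisons (0.58 to 1.07), which turns the sign of both M1-8 h values. Its partner Itgb1 held 447 to 563 CPM at M0, 666 to 736 at M1-8 h and 448 to 516 at M1-12 h. Per kb of exon Itga5 was 0.76 to 1.11 of Itgb1 at M0, 0.507 to 0.675 at M1-8 h and 0.975 to 1.21 at M1-12 h.

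Itgav and Itgb3 form the vitronectin receptor, and both were lower after LPS on the library total scale. Itgav held 226 and 174 CPM with vehicle, 116 and 129.8 after 8 h of LPS, and 116 and 90.8 after 12 h in wt. Without Treml4 it held 210.2 and 227 CPM with vehicle, 141 and 128 after 8 h of LPS, and 122 and 108 after 12 h. Its log2 changes were -0.69 and -0.94 (wt, 8 h and 12 h) and -0.70 and -0.92 (Treml4-/-), with an SE of 0.14 each, with limma adjusted p of at most 7.943e-04. Relative to the median gene they were 0.05 and -0.18 in wt, and with median of ratios scaling 0.15 and -0.07 in wt and 0.05 and -0.10 in Treml4-/-, with none called.

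Itgb3 was the least abundant member, with 67 to 217 reads per library. It held 4.18 and 3.32 CPM with vehicle, 1.82 and 1.43 after 8 h of LPS, and 1.63 and 1.47 after 12 h in wt. The knockout libraries held 4.20 and 3.82 CPM with vehicle, 2.24 and 1.32 after 8 h of LPS, and 1.52 and 1.16 after 12 h. LPS libraries were below vehicle libraries in both genotypes. The log2 changes were -0.86 and -0.89 (wt, 8 h and 12 h) and -0.87 and -1.10 (Treml4-/-), with an SE of 0.17 each (limma adjusted p of at most 5.393e-04). Scaled by median of ratios, only the last was called (-0.51, limma adjusted p = 0.0144). Quantile normalization left none of the 4 calls, with -0.042 at both times in wt and -0.14 and -0.28 in Treml4-/-. Per kb of exon Itgav was 27.5 to 32.6 times Itgb3 at M0 and 33.9 to 53.5 times after LPS. The osteoclast markers, genes of cells rich in this receptor, summed to 255 to 298 CPM at M0 and 107 to 158 CPM after LPS. The single markers were mixed: of 5 tested, 1 was called higher and 2 lower in each of the 4 LPS comparisons. Under median of ratios scaling the counts were 2 and 2, then 2 and 1, in wt, and 3 and 2, then 1 and 1, in Treml4-/-. The part of such cells in the Itgb3 values was not tested.

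**Figure D3:**
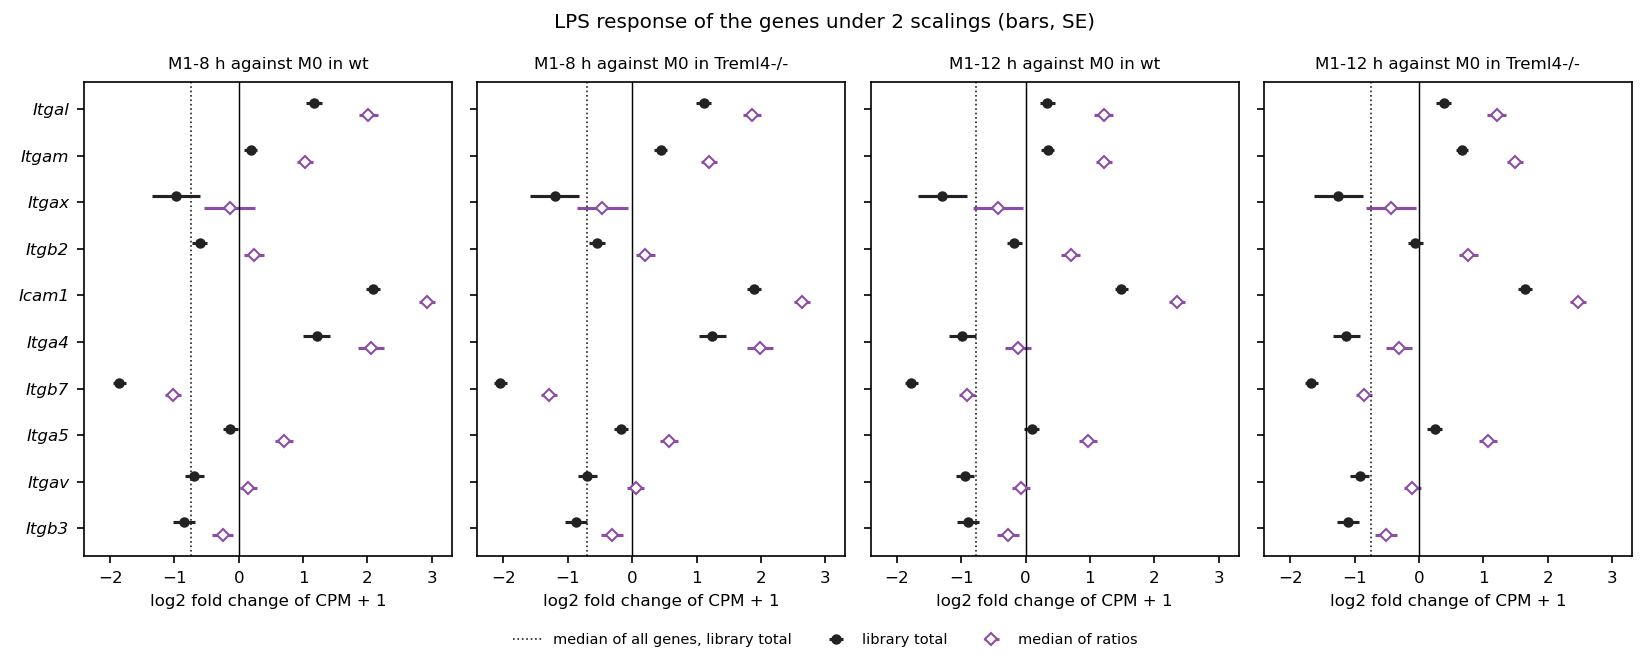
log2 fold change of CPM + 1 against M0 (horizontal axis) for each gene in the 4 LPS comparisons, with SE bars, under library total scaling (filled circles) and median of ratios scaling (open diamonds); the dotted line is the median of all genes under library total scaling. Icam1 and Itgal lie right of 0 and Itgb7 left of 0 under both scalings at both times, whereas Itgb2 (at both times), Itgav and Itga5 (at M1-8 h) change sign between them.

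Compared per length, Itgb2 was the most abundant of the 10 in every group, and Itgb3 the least. Itgb2 held 442 ± 90.8 CPM per kb (SD, n = 2) at M0 in wt and 420 ± 6.63 in Treml4-/-, and Itgb3 0.636 ± 0.103 and 0.679 ± 0.0455. At M0 the order below Itgb2 was Itgam, Itgb7, Itga5, Itgal, Icam1, Itgax, Itgav and Itga4 in both genotypes. Neighbours in it whose libraries overlapped were Itga5 with Itgal and Itgax with Itgav in wt, and Itgam with Itgb7 in Treml4-/-. At M1-8 h the order was Itgam, Itgal, Icam1, Itga5, Itgb7, Itga4, Itgav and Itgax in both, where Icam1 had passed Itga5 and Itgb7, and Itga4 had passed Itgav and Itgax. There Itgam with Itgal and Itgav with Itgax overlapped in wt. At M1-12 h Itga4 was again second to last, at 4.55 ± 1.24 CPM per kb in wt and 3.90 ± 0.569 in Treml4-/-. Icam1 rose from 37.4 ± 3.93 CPM per kb at M0 to 159 ± 9.88 at M1-8 h in wt, while Itgb7 went from 149 ± 9.36 to 40.7 ± 0.558. Relative to Itgal in the same library, Icam1 was 0.375 to 0.416 at M0, 0.674 to 0.757 at M1-8 h and 0.829 to 1.02 at M1-12 h.

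**Figure D4:**
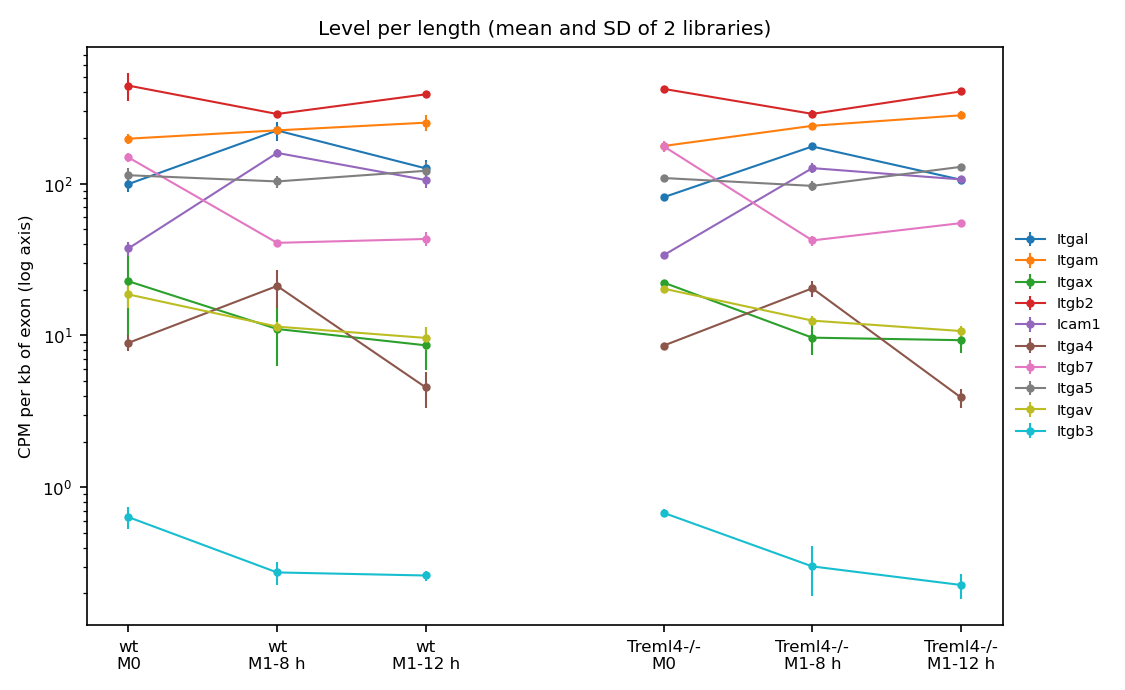
Level per length of each gene, in CPM per kb of exon on a log axis, by group; points are means and bars SDs of 2 libraries. Itgb2 is at the top and Itgb3 at the bottom of every group, Icam1 crosses Itgb7 between M0 and M1-8 h, and Itga4 peaks at M1-8 h (21.2 CPM per kb in wt) and is second to last at M1-12 h.

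Loss of Treml4 gave 0 called differences among the members in each of the 3 conditions, where limma called 0.0993%, 0.091% and 0.132% of all genes. The interactions, which test whether the LPS response differed between genotypes, also gave 0 members at 8 h and at 12 h, with 0.00827% of all genes called at each time. With voom the counts were 0 in all 5 tests as well. At an unadjusted p under 0.05 there were 2, 2 and 1 members at M0, M1-8 h and M1-12 h, and 0 and 1 for the interactions, against 3.35%, 21% and 7.55% of all genes, and 6.67% and 3.82%. The Treml4-/- minus wt differences of the 10 genes ranged from -0.34 to 0.35 (log2) over the 3 conditions. The 95% intervals were widest for Itgax, from -0.97 to 0.70 at M1-8 h, so differences of that size cannot be set aside for it. For Itgb2 the intervals lay between -0.32 and 0.32 in all 3 conditions.

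Itgal was the 1 member of 10 whose Treml4-/- libraries lay on the same side of the wt libraries, below them, with no overlap in any of the 3 conditions, a pattern that 3.84% of all genes tested showed in either direction. The differences were -0.28 ± 0.12 with vehicle, -0.34 ± 0.12 after 8 h of LPS and -0.24 ± 0.12 after 12 h (limma adjusted p = 1.0, 0.179 and 0.723). They were -0.32, -0.47 and -0.33 under median of ratios scaling, with none called. Icam1 was lower in Treml4-/- at M1-8 h by 0.33 ± 0.11 on the log2 scale (limma adjusted p = 0.169, unadjusted p = 9.174e-03), and at M1-12 h the difference was 0.02 ± 0.11, or -0.07 under median of ratios scaling. Itgb7 was higher in Treml4-/- by 0.24 ± 0.10 at M0 and 0.35 ± 0.10 at M1-12 h (limma adjusted p = 1.0 and 0.310). Under median of ratios scaling these differences were 0.205 and 0.26 (limma unadjusted p = 0.126 and 0.0583). Itgam gave the 1 interaction with an unadjusted p under 0.05, at 12 h (0.32 ± 0.14, limma adjusted p = 1.0). It was 0.27 under median of ratios scaling, with a limma unadjusted p of 0.153.

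The other chains of the family, their ligands and their linkers were taken as lists. The genes named from them as higher or lower in wt kept that call under median of ratios scaling, except where another value is given. For the counts, 16.3% of all genes were called higher and 60.6% lower at M1-8 h in wt, and 16.2% and 60.4% at M1-12 h. Under median of ratios scaling these shares were 30.9% and 30.8%, then 32.9% and 33%. Of 12 other integrin alpha chains 6 were expressed enough to test, of which 3 were higher and 2 lower at M1-8 h in wt, and 2 and 2 at M1-12 h. Itga6, a laminin receptor chain, changed by -2.21 ± 0.31 and -2.96 ± 0.31 (log2), whereas Itga1, a collagen receptor chain, rose by 2.19 ± 0.12 and 1.36 ± 0.12. Itga9 rose from 2.04 and 1.42 CPM at M0 to 9.53 and 8.21 after 8 h of LPS and 17.1 and 11.3 after 12 h in wt. Itga8 was higher at M1-8 h (6.94 and 7.56 CPM against 2.14 and 1.53), and its change at M1-12 h (1.29 and 1.33 CPM) was -0.29 and not called, or 0.23 under median of ratios scaling.

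Of 6 other beta chains 4 were tested. Itgb5, a partner of Itgav, dropped from 529 and 601 CPM at M0 to 81.0 and 66.8 after 8 h of LPS and 32.9 and 25.6 after 12 h in wt, a log2 change of -2.92 ± 0.14 and -4.23 ± 0.14. Scaled by median of ratios it was -2.08 and -3.37, and in Treml4-/- -2.92 and -4.03. Itgb8, a further partner of Itgav, rose from at most 0.511 CPM at M0 to 6.88 and 15.7 at M1-8 h in wt (3.04 ± 0.37). Itgb1 changed by 0.43 ± 0.11 at M1-8 h in wt, under the fold limit, and by 0.54 ± 0.11 in Treml4-/-, where it was called higher. At M1-12 h it was near M0 (-0.15 and -0.06), and under median of ratios scaling it was called higher in all 4 comparisons (0.73 to 1.30).

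Of 11 other cell surface counter-receptors 4 were tested, and 2 were higher and 1 lower at M1-8 h in wt. Vcam1, the ligand of VLA-4, held 15.0 and 9.58 CPM with vehicle, 51.5 and 52.5 after 8 h of LPS, and 17.5 and 23.0 after 12 h in wt, a rise of 2.02 ± 0.18 and then 0.69 ± 0.18 (log2). In Treml4-/- its change was 1.57 ± 0.18 and then 0.19 ± 0.18, the latter not called, or 0.96 and called higher under median of ratios scaling. Icam2, another ligand of LFA-1, went the other way from Icam1, from 16.7 and 12.3 CPM to 3.23 and 2.19 and then 1.86 and 1.41, a log2 change of -2.06 ± 0.18 and -2.55 ± 0.18. Cd47, which binds Itgav integrins and thrombospondin, rose by 1.32 ± 0.09 and 1.26 ± 0.09. F11r (JAM-A), a ligand of LFA-1, fell by 1.83 ± 0.12 at M1-12 h. At M1-8 h its change was -0.22 and not called, and 0.60 and called higher under median of ratios scaling.

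Of 16 matrix and soluble ligands 10 were tested, with 2 higher and 4 lower at M1-8 h in wt, and 3 and 3 at M1-12 h. C3, whose fragment iC3b is bound by Mac-1 and CD11c, held 106 and 155 CPM with vehicle, 3156 and 5044 after 8 h of LPS, and 4701 and 5939 after 12 h in wt. Tnc, tenascin-C, rose by 7.14 ± 0.21 and 4.85 ± 0.21 (log2) from under 1 CPM at M0. Vwf fell by 3.08 ± 0.19 and 1.68 ± 0.19, and Mfge8, a bridge between Itgav integrins and dying cells, fell by 1.46 ± 0.23 and 1.87 ± 0.23. Fn1, fibronectin, was at 37.4 CPM in 1 wt M0 library and at 1.77 CPM in the other, and it was called in none of the 4 LPS comparisons.

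Of 28 genes that activate integrins or link them to actin 24 were tested, with 4 higher and 14 lower after 8 h and 4 and 12 after 12 h in wt. Their median change was -0.63 and -0.59, close to that of all genes, and under median of ratios scaling the counts were 9 higher and 6 lower, and 11 and 8. Zyx (zyxin) rose by 3.90 ± 0.12 and 2.99 ± 0.12, and Rapgef2, an exchange factor for Rap GTPases, by 3.87 ± 0.11 and 3.88 ± 0.11. Apbb1ip (RIAM), which brings talin to integrins, fell by 2.63 ± 0.11 and 2.29 ± 0.11. Actn1 (alpha-actinin) was lower by 2.94 ± 0.16 at M1-12 h and by 0.83 ± 0.16 at M1-8 h, the latter 0.01 under median of ratios scaling.

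Of 16 signalling kinases and adaptors all 16 were tested, and here more were higher than lower: 7 and 2 after 8 h, and 7 and 3 after 12 h in wt, against the shares of all genes given with the lists. Their median change was 0.39 and 0.38, against -0.74 and -0.77 for all genes, and 13 higher and 0 lower, then 12 and 1, were called under median of ratios scaling. Src rose by 2.26 ± 0.12 and 1.34 ± 0.12, and Lyn, another Src family kinase, by 2.10 ± 0.11 and 1.87 ± 0.11. The adaptor Lcp2 (SLP-76) rose by 2.26 ± 0.12 and 1.69 ± 0.12. Bcar1 (p130Cas) went from 0.231 and 0.295 CPM at M0 to 1.55 and 1.65 after 8 h of LPS and 8.31 and 8.40 after 12 h.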

How the data were processed

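The authors aligned paired, stranded reads with STAR to mm10 (GRCm38), per the labels' processing notes. Reads were counted per gene in their workflow, whose annotation and strand setting are not given in the sources used here. The deposited values are log2 CPM. They were turned back into CPM and whole reads, and 100% of the values came out whole within 0.01 read. Libraries held 48008751 to 58500792 reads on genes, so 1 read was worth 0.0171 to 0.0208 CPM; this precision covers counting error only.

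Genes that reached 1 CPM in 2 or more libraries were tested on log2(CPM + 1), so that a fold change understates that of low genes. limma 3.58.1 (R 4.3.3) was fitted with a trend, 1 mean per group and all 12 libraries, with Benjamini-Hochberg adjustment over 12086 genes and a 1.4-fold minimum. The methods gave the same limits for their own count test. That test was not run here, although whole reads could be recovered, and voom on those reads was an alternative. The test was tried on simulated data first. Levels per kb used the union of GENCODE M21 exons. Tables, motifs and plots were made with Python 3.11.15, pandas 2.3.3, numpy 2.4.6 and matplotlib 3.10.9.

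The 10 members, the lists and the alternatives were chosen with earlier results of these data known. Beside the members, up to 4 genes of each list are named, those with the largest called changes in wt, and always Itgb1, Vcam1, Icam2 and Fn1. Of each member, the 3 genes of highest r may be named. Replicates of a group differed by more than sampling noise (chi-square per degree of freedom at least 12.05) and were kept apart.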

Additional observations from a re-analysis of the deposited data

How the results depend on the processing

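Scaling changed the most results. Under median of ratios scaling the direction of Itgb2 turned at M1-8 h (0.24 in wt, 0.21 in Treml4-/-) and M1-12 h (0.70 and 0.77), of Itgav at M1-8 h (0.15 and 0.054) and of Itga5 at M1-8 h (0.71 and 0.58). With quantile normalization Itgam turned in wt (-0.21 at M1-8 h, -0.028 at M1-12 h), as did Itga5 at M1-12 h in wt (-0.022), and 4 members instead of 7 were called at M1-12 h in Treml4-/-. Median of ratios scaling sets the median change near 0 by construction, and which scaling is nearer to the RNA per cell was not tested. All genes called higher at M1-8 h in wt numbered 1971, against 3730 when scaled by median of ratios and 3252 after quantile normalization. Without a minimum fold change 5 members instead of 3 were called between 8 h and 12 h in Treml4-/- and 4 instead of 3 in wt. Of all genes 19.8% were then higher and 27.2% lower in Treml4-/-, and 20.4% and 25.9% in wt. Against M0 this setting gave 8 instead of 6 at M1-12 h in wt (Itgam and Itgal added). In Treml4-/- it gave 9 instead of 8 at M1-8 h (Itgam) and 8 instead of 7 at M1-12 h (Itgal). The shares of all genes in these 3 comparisons were 19.2% higher and 66% lower, 20.2% and 64%, and 19.2% and 65.5%. Leaving out 1 library at a time turned the near-zero M1-12 h changes in wt, where Itga5 ranged from -0.046 to 0.23 and Itgb2 from -0.39 to 0.036, and gave 6 to 8 members at M1-8 h in both genotypes, 5 to 6 and 6 to 7 at M1-12 h in wt and Treml4-/-, and 2 to 3 and 2 to 4 between the LPS times. The wt Itgax call at M1-8 h was also lost with no filter on low values (limma adjusted p = 0.0845) and in a fit on the 2 groups alone (limma adjusted p = 0.0566). The pseudocount of 0.1 CPM, the deposited log2 CPM, no variance trend and voom changed no call described for a member, and with the 5 CPM filter Itgb3 was not tested.

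Same-numbered replicates did not deviate together throughout (r = -0.264, 0.297 and 0.056 between genotypes at M0, M1-8 h and M1-12 h), and within a genotype r ran from -0.272 to 0.462 (0.406 for wt M1-8 h with M1-12 h, 0.462 for Treml4-/- M0 with M1-8 h). The numbers were not taken as pairs in the main fit. The titles number the replicates alike in each condition, and with 2 replicates these r cannot show that the libraries were unpaired. The replicate block, over all libraries or within each genotype, gave 8, 6, 8 and 7 members called in the 4 LPS comparisons and 3 and 3 between the times, as without it, and crossing the M0 numbers, an alternative added after seeing the data, gave the same counts. With 2 libraries a group, small genotype differences were not detectable.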
